A study of Arabidopsis thaliana with 6 samples.

Results

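The comparison set cotyledons of the Arabidopsis thaliana double mutant sicy-192 gun1-101 against those of the wild type. It was defined by the genotype in the array titles and takes 4 of the 6 arrays of the series, 2 of each genotype. The other 2 arrays hold the single mutant sicy-192, whose values are given where they place the double mutant. All plants were of ecotype Col-0, grew for 4 days on MS medium with 100 mM sucrose, and had 16 h of light at 25 °C (100 µmol per square metre and second) and 8 h of darkness at 22 °C. The wild type carried neither mutation, the single mutant carried sicy-192 and the double mutant carried sicy-192 together with gun1-101. Arrays of a gun1-101 single mutant were not analysed here, so every difference described belongs to the pair of mutations. The labels call the 2 arrays of a genotype biological replicates and do not say whether their plants were raised separately or pooled, so the p-values cover only the spread among these arrays, which may be technical.

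The sicy-192 mutation (sugar-inducible cotyledon yellow) is known as a gain of function in a plastid invertase, an enzyme that splits sucrose into glucose and fructose, and the cotyledons of the mutant turn yellow on sucrose. GUN1 is a plastid protein with pentatricopeptide repeats, named after "genomes uncoupled" mutants in which nuclear genes for photosynthesis stay on although the plastid is damaged. Subunits of the photosynthetic complexes come from both genomes: the plastid chromosome holds many core subunits, ribosomal proteins and an RNA polymerase, and the nucleus holds antenna proteins, peripheral subunits and most enzymes of chlorophyll synthesis.

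RNA was measured on 1-colour Affymetrix arrays as a signal intensity per probe set. Values printed for single arrays are signals scaled to a common trimmed mean of 500, always with replicate 1 before replicate 2. Changes are differences of log2(signal + 16), double mutant minus wild type unless said otherwise, with the standard error of the limma fit after ±, and understate the change of dim probe sets. A probe set was called at a Benjamini-Hochberg adjusted p under 0.05. The replicate arrays of the wild type correlated at 0.9795 and those of the double mutant at 0.9827 over the tested probe sets. Neither GUN1 (AT2G31400) nor the invertase gene INV-E (AT5G22510) has a probe set in the gene table used here, so the mutated genes were not analysed here and the labels have no check of that kind. Of the listed markers of other organs, 1 of 5 for the shoot meristem and 2 of 7 for the root had a probe set with a single gene. These were dim in all 6 arrays: the shoot meristem gene CLV3 read 3.0 to 12.8, and the root hair expansins EXPA7 and EXPA18 read 3.17 to 28.0 and 16.5 to 52.2. So few markers cannot exclude other tissue in the samples.

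Of 14785 probe sets tested, 4450 were called different between the double mutant and the wild type, which is 30.1%. Higher calls numbered 2560 (17.3%) and lower calls 1890 (12.8%), against 6243 at an unadjusted p under 0.05. At least 2-fold changes were found for 799 of the higher and 606 of the lower calls, and at least 4-fold changes for 159 and 114. As a count without a model, 797 probe sets (5.39%) were at least 2-fold apart in every pairing of a double mutant with a wild-type array, 458 higher (3.1%) and 339 lower (2.29%). Leaving out 1 array lowered the number of calls to 2925 without wild-type replicate 1 and to 2307 and 2491 without the first or the second array of the double mutant, and raised the number of 2-fold pairings to 1306 without wild-type replicate 2. Higher calls were 57.5% of all calls, a share that became 49% with quantile normalization and 45.1% when each array was centred on its median. Among the 8033 named genes tested, each taken at its brightest probe set, 2354 were called (29.3%), 1360 higher (16.9%) and 994 lower (12.4%). The median change of all tested probe sets was 0.07, and the counts of the gene groups below are read against these shares.

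**Figure D1:**
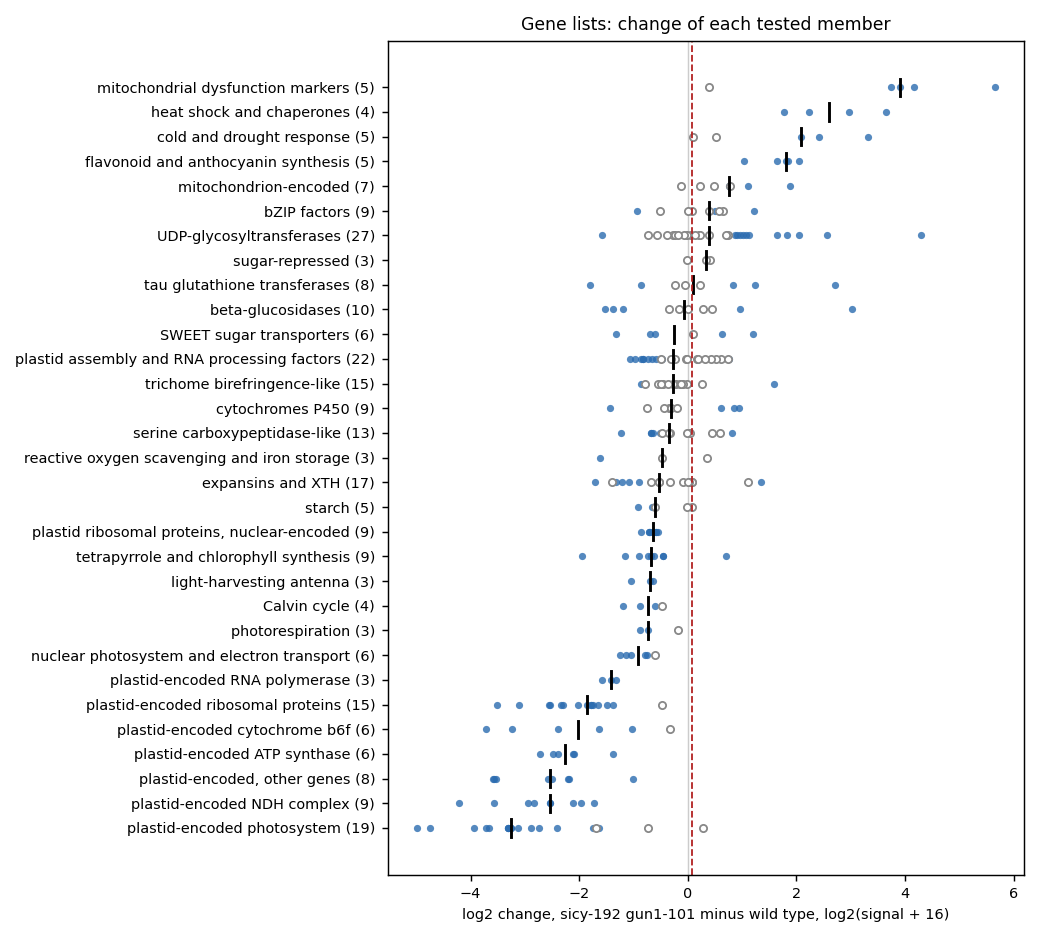
Change of each tested gene by group. The x axis is the log2 change, double mutant minus wild type, on the log2(signal + 16) scale; each point is 1 gene (2 arrays per genotype), filled where called and open where not, black bars are group medians, the dashed line is the median of all tested probe sets (0.07), and the number tested follows each group name. The 7 groups of plastid-encoded genes lie at medians of -1.41 to -3.25, and the mitochondrial dysfunction markers at 3.91.

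Transcripts of the plastid chromosome were lower in the double mutant almost throughout. Of 69 plastid genes with a probe set 66 were tested, 61 of these fell and 0 rose (0 also at an unadjusted p under 0.05), against 12.4% of all named genes called lower, and their median change was -2.41. In cotyledons as a whole, fewer cells of a type and less RNA per cell cannot be told apart. The median was -2.43 between the replicate 1 arrays and -2.28 between the replicate 2 arrays, and 57 to 62 genes were called lower when 1 array was left out. Plastid genes made up 13 of the 15 largest falls among named genes. The single mutant, compared with the same wild-type arrays, had a median of -0.78 for these 66 genes.

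Photosystem genes showed the steepest group median, -3.25, with 16 of 19 called lower. For 3 of these, psaA, psbB and psbT, the 4 arrays outside the wild type averaged below the filter on dim probe sets, so that they were tested only through the wild type; without the filter their adjusted p was 0.00137, 0.00339 and 0.031. The photosystem II antenna protein gene psbC read 7600.1 and 5688 in wild type, 850.4 and 536 in sicy-192 and 174 and 210.0 in the double mutant. The sicy-192 arrays lay between those of the other genotypes, and psbC fell by 4.99 ± 0.23 on the log2 scale (adjusted p = 6e-06). The gene of the small photosystem II subunit psbH went from 2166 and 2490.3 in wild type to 163 and 154 in sicy-192 and 68.8 and 72.6 in the double mutant, a change of -4.75 ± 0.16 (adjusted p = 1.38e-06). Both genes were also lower in the double mutant than in sicy-192, by 1.74 for psbC (adjusted p = 0.0012) and 1.0 for psbH (adjusted p = 0.003). For photosystem I, psaB, one of the core subunits that bind the reaction centre chlorophylls, read 21945 and 15259 in wild type, 8857 and 5473 in sicy-192 and 1342 and 1027 in the double mutant. It fell by 3.94 ± 0.26 (adjusted p = 2.38e-05), and the single mutant lay between the other genotypes. The psbE and psbF genes, for the subunits of cytochrome b559, fell by 3.71 and 3.66, and psbL by 3.31.

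The 3 photosystem genes without a call were psbK, psbI and psbN, picked out here after their values were seen, as were rps14 and petG. The psbN gene lies on the strand opposite to psbB and its neighbours. It read 115 and 63.0 in wild type, 1152 and 534 in sicy-192 and 169 and 65.6 in the double mutant. The double mutant arrays lay close to the wild-type ones, with a change of 0.27 (95% interval -0.73 to 1.27, adjusted p = 0.674), while the single mutant was higher than both (double minus single mutant -2.70, adjusted p = 0.00322). For psbK the arrays of a genotype stood apart, at 4411 and 1205 in wild type and 3319 and 518 in sicy-192. The double mutant read 1179 and 415 (change -1.70, adjusted p = 0.155), and the changes between same-numbered arrays were -1.89 and -1.50. Changes of psbI (-0.74), rps14 (-0.48) and petG (-0.32) did not pass either, with adjusted p of 0.311, 0.189 and 0.685. With the replicate number as a block in the limma fit, psbK (adjusted p = 5.56e-05) and psbI (0.0335) were called lower.

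The cytochrome b6f complex, which passes electrons between the photosystems, had 5 of 6 plastid genes called lower, at a median of -2.01. Its cytochrome b6 gene petB went from 22899 and 18357 in wild type to 3821 and 3036 in sicy-192 and 1297 and 1827 in the double mutant, a change of -3.72 ± 0.20 (adjusted p = 9.43e-06). The cytochrome f gene petA fell by 3.24 (adjusted p = 6.24e-05) and petD, for subunit IV, by 1.63 (adjusted p = 0.00723, change -1.04 with an offset of 64). For petB the single mutant values were the middle ones. The small subunit gene petL fell by 2.40 (adjusted p = 0.0308), but its wild-type arrays read 205 and 938. That call did not hold without wild-type replicate 2 (adjusted p = 0.156) and without double mutant replicate 1 (0.188), as well as without the filter and without the variance trend. The call of petN, another small subunit gene named after its values were seen, was lost without wild-type replicate 2 (0.103), without either double mutant array (0.0814 and 0.066) and without the filter (0.052). The count of the complex was therefore 3 of 6 without wild-type replicate 2, without double mutant replicate 1 and without the filter.

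All 6 plastid genes of the ATP synthase, which makes ATP from the proton gradient, fell, at a median of -2.26. Its beta subunit gene atpB read 34851 and 26651 in wild type, 28099.9 and 19589.6 in sicy-192 and 5353 and 6232 in the double mutant. Both double mutant arrays were far below all other arrays, and atpB fell by 2.40 ± 0.21 (adjusted p = 0.000124). The change of the single mutant from the same wild-type arrays was -0.38 (adjusted p = 0.228), and the double mutant was lower than the single mutant by 2.02 (adjusted p = 0.000424). The stalk subunit gene atpF and the membrane ring gene atpH fell by 2.73 and 2.48, and atpI fell by 2.11.

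All 9 tested plastid genes of the NDH complex, which returns electrons from stromal reductants to the plastoquinone pool, fell at a median of -2.54. The gene ndhJ went from 2819 and 1856 in wild type to 751 and 644 in sicy-192 and 88.2 and 132 in the double mutant, a change of -4.21 ± 0.23 (adjusted p = 9.86e-06). The genotypes formed 3 separate levels. Its neighbour ndhK fell by 3.56, ndhE fell by 2.95 and ndhA fell by 2.84.

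Genes for the plastid's own expression machinery fell as well. Of 15 ribosomal protein genes 14 were called lower, at a median of -1.86, against a median of -0.42 in the single mutant. The gene rpl16 read 8254 and 8408 in wild type, 6527 and 5901 in sicy-192 and 983 and 1991 in the double mutant, and fell by 2.56 ± 0.27 (adjusted p = 0.000285). The single mutant stood nearer to the wild type for rpl16 and the double mutant well below both. Changes of -3.51 for rpl33, -3.12 for rpl22 and -2.54 for rps4 were also called. The 3 tested RNA polymerase genes all fell, at a median of -1.41. The rpoC2 gene, for a beta-prime-type subunit of the polymerase, read 1219 and 1445 in wild type, 3931 and 3251 in sicy-192 and 429.7 and 557 in the double mutant. The order of the genotypes was thus different for rpoC2 than for psbC: the single mutant was the highest (1.42 from wild type, adjusted p = 0.000555) and the double mutant the lowest (-1.41 ± 0.18, adjusted p = 0.000632). The rpoC1 gene had the same order of levels, with 1.11 in the single and -1.33 in the double mutant. For rpoA, the alpha subunit gene, the single mutant had a change of 0.08 (adjusted p = 0.806) and the double mutant fell by 1.58.

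The remaining 8 plastid genes all fell, at a median of -2.54. The large subunit of Rubisco, the enzyme that fixes carbon dioxide, is encoded by rbcL, which read 5116 and 4912 in wild type, 1098 and 609.6 in sicy-192 and 441 and 379 in the double mutant. It fell by 3.57 ± 0.24 (adjusted p = 2.7e-05), beside -2.59 in the single mutant. The envelope protein gene cemA fell by 3.58, the cytochrome c assembly gene ccsA by 3.52 and ycf3, for a photosystem I assembly factor, by 2.58. The single mutant had a change of -0.27 in ycf3 (adjusted p = 0.524), and its arrays read 2201 and 1596 beside 2229.9 and 2287 in wild type and 256 and 518 in the double mutant.

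**Figure D2:**
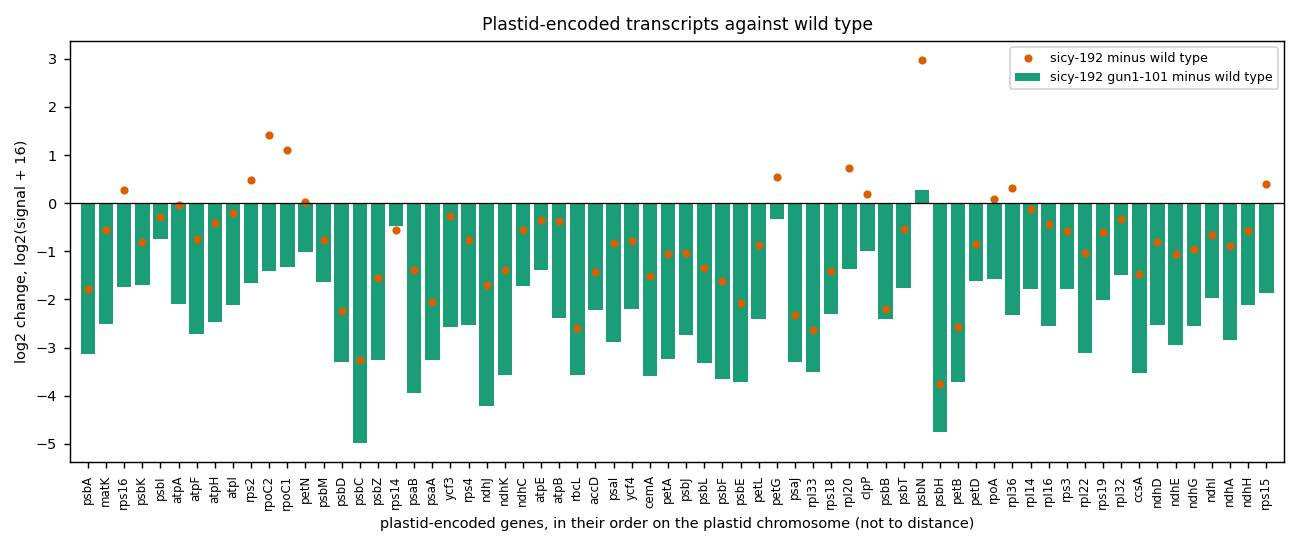
Change of the 66 tested plastid-encoded genes against wild type, in their order on the plastid chromosome (not to distance). Bars are the double mutant and points the single mutant, each the mean of 2 arrays minus the mean of the same 2 wild-type arrays, on the log2(signal + 16) scale. Bars run from -4.99 (psbC) to 0.27 (psbN); the points for rpoC2 and rpoC1 lie above 0 where the bars lie below it.

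One measure of the RNA itself was highest in the double mutant. The array's control probe set for 25S rRNA read 452 and 1763 in wild type, 1378 and 1173 in sicy-192, and 7778 and 8361 in the double mutant. The wild-type arrays thus stood apart, on either side of the single mutant. Another control, for 5S rRNA, read 25.1 and 77.6 in wild type, 33.1 and 65.7 in sicy-192, and 27.0 and 51.6 in the double mutant, so the genotypes overlapped. The copying of RNAs with short or no poly(A) tails, plastid and ribosomal RNAs included, depends on the reverse transcription primer, which is not given in the sources used here. The signal ratio of the 3' to the 5' probe set of GAPDH was 1.42 and 1.20 in wild type against 1.31 and 1.11 in the double mutant. For ubiquitin it was 1.69 and 1.54 in wild type and 1.41 and 1.41 in the double mutant. The actin ratio was higher, at 7.18 and 4.86 in wild type, 6.14 and 4.00 in sicy-192 and 6.73 and 4.47 in the double mutant. The part of the ribosomal RNA level or of RNA quality in the plastid result was not tested.

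Most tested nuclear genes for photosynthesis were below wild type in the double mutant, with group medians of -0.68 to -0.92. Among 35 listed photosystem and electron transport genes 6 were tested and 5 fell, at a median of -0.92. Antenna genes numbered 21 in the list, and the 3 tested, all LHCB4 genes, fell, at a median of -0.69. Over the alternatives these medians ranged from -1.10 to -0.58 and from -0.86 to -0.62. The photosystem II assembly factor gene PSB27 read 21280.1 and 16775 in wild type, 4869.7 and 4392 in sicy-192 and 8085 and 7839 in the double mutant. The double mutant lay between the others without overlap, below wild type by 1.25 ± 0.16 (adjusted p = 0.000722) and above sicy-192 by 0.78 (adjusted p = 0.00871). The photosystem II subunit genes PSBY and PSBW fell by 1.13 and 0.79, and ATPC1, for the gamma subunit of the ATP synthase, by 1.05. With quantile normalization these 3 changes were -0.72, -0.48 and -0.68. For PSAE-1, the member without a call, picked out after its values were seen, the change was -0.60 (adjusted p = 0.109).

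The antenna gene LHCB4.2, for a minor chlorophyll-binding protein of photosystem II, read 24345 and 18404 in wild type, 5619 and 3958 in sicy-192 and 11239.9 and 9432 in the double mutant. It fell by 1.04 ± 0.21 (adjusted p = 0.00636), and the double mutant arrays were again the middle group. Its change was -0.69 with quantile normalization. Its relative LHCB4.3 fell by 0.69 (adjusted p = 0.0083), a call lost without double mutant replicate 1 (adjusted p = 0.0592). LHCB4.1 fell by 0.64 (adjusted p = 0.0442), but its change shrank to -0.12 with quantile normalization (adjusted p = 0.493). The adjusted p was above the threshold too without wild-type replicate 1 (0.223), without double mutant replicate 2 (0.238), without sicy-192 replicate 2 (0.0504), without the filter and without the variance trend.

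In the Calvin cycle, which builds sugars from carbon dioxide, 3 of 4 tested genes (22 listed) fell, at a median of -0.74. The phosphoribulokinase gene PRK read 22739 and 17759 in wild type, 3697 and 2967 in sicy-192 and 8981 and 8485 in the double mutant. The genotypes did not overlap, and the double mutant was lower than wild type by 1.20 ± 0.17 (adjusted p = 0.00139) and higher than sicy-192 by 1.39 (adjusted p = 0.000899). SBPASE, for sedoheptulose bisphosphatase, fell by 0.88, against a change of -0.57 with quantile normalization. AT1G56190, of the same hand-written list, fell by 0.60 (adjusted p = 0.0139), a call lost without wild-type replicate 1 and without either double mutant array (adjusted p up to 0.0774) and with quantile normalization (0.0546). RCA, for Rubisco activase, overlapped between the genotypes at 36522 and 25162 against 26088 and 18313, a change of -0.47 (95% interval -1.03 to 0.09, adjusted p = 0.184). Between same-numbered arrays its changes were -0.49 and -0.46. With the replicate number as a block in the limma fit it was called lower (adjusted p = 0.0039). With quantile normalization its change was 0.087.

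Photorespiration recovers carbon lost when Rubisco binds oxygen, and 2 of its 3 tested genes (13 listed) fell. AT1G11860 and AT1G80380, of the hand-written photorespiration list, fell by 0.88 and 0.74, and the change of AT1G11860 was -0.54 with quantile normalization. The hydroxypyruvate reductase gene HPR read 19252 and 12433 in wild type, 4895 and 2670.2 in sicy-192 and 15576 and 12109 in the double mutant. The double mutant and wild-type ranges overlapped for HPR, with a change of -0.17 (95% interval -0.84 to 0.49, adjusted p = 0.692), while the double mutant was above sicy-192 by 1.92 (adjusted p = 0.00236). The thylakoid ascorbate peroxidase gene TAPX, which removes hydrogen peroxide at the photosynthetic membrane, fell by 1.62 ± 0.19 (adjusted p = 0.000433), from 3703 and 2601 to 1011 and 988. SAPX and AT3G11630, the other 2 tested members of the list for reactive oxygen scavenging, had changes of 0.35 (adjusted p = 0.082) and -0.48 (0.0531).

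**Figure D3:**
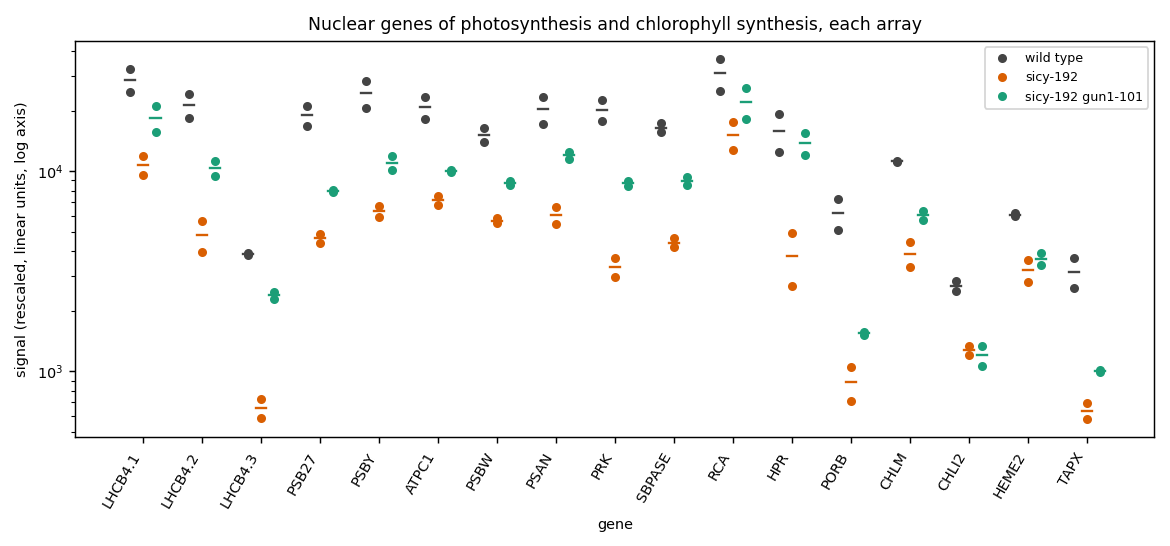
Signal of nuclear genes for photosynthesis, chlorophyll synthesis and peroxide removal in each array (log axis, rescaled linear signal). Points are single arrays, 2 per genotype, and short lines are their means. For PSB27, LHCB4.2 and PRK the double mutant lies between sicy-192 and wild type, and for RCA and HPR its points overlap those of wild type.

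Genes of chlorophyll synthesis were lower at most of the measured steps, with 8 of 9 tested tetrapyrrole genes (31 listed) called lower, at a median of -0.68. PORB, a light-dependent protochlorophyllide reductase, read 5075 and 7272 in wild type, 709 and 1054 in sicy-192 and 1580.3 and 1527 in the double mutant. No arrays overlapped, and PORB fell by 1.96 ± 0.22 (adjusted p = 0.000372). CHLI2, for a subunit of the magnesium chelatase at the branch to chlorophyll, went from 2517 and 2835 to 1065 and 1342 (change -1.15 ± 0.16, adjusted p = 0.00108). The single mutant read 1208 and 1346 for CHLI2, and its difference from the double mutant was -0.09 (double mutant minus sicy-192, adjusted p = 0.727). The methyltransferase gene CHLM fell by 0.90 and the uroporphyrinogen decarboxylase gene HEME2 by 0.73, the latter a call lost without double mutant replicate 1 (adjusted p = 0.0667). HEMA2, for a glutamyl-tRNA reductase at the start of the pathway and singled out after its values were seen, rose by 0.70 (adjusted p = 0.0208). HEMA2 lost its call without each of the 4 arrays compared (adjusted p up to 0.121) and with quantile normalization (0.0535). In the whole list 5 genes were called lower without wild-type replicate 1, wild-type replicate 2 or double mutant replicate 2. That number was 3 when replicate 1 of the double mutant was left out, and 3 of the 9 were called lower under every alternative tried.

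All 9 tested nuclear genes of plastid ribosomal proteins (38 listed) were called lower, within a narrow span of -0.55 to -0.85. AT2G43030, of that list, went from 18309 and 16088 in wild type to 10221 and 8816 in the double mutant, with 11905 and 10898 in sicy-192, and fell by 0.85 ± 0.15 (adjusted p = 0.00394). AT3G13120, AT1G64510 and AT5G47190 fell by 0.72, 0.71 and 0.70. With quantile normalization the changes of AT2G43030, AT3G13120 and AT1G64510 were -0.54, -0.44 and -0.43. AT5G47190 lost its call without wild-type replicate 1 (adjusted p = 0.0823), wild-type replicate 2 (0.0536) or double mutant replicate 1 (0.156), without the filter and with quantile normalization, and the list's count was 5 of 9 without wild-type replicate 2 and 3 of 9 without double mutant replicate 1 or with quantile normalization. Among 22 tested factors of plastid complex assembly and RNA processing, 9 fell and 1 rose, at a median of -0.27, but without double mutant replicate 1 the falls numbered 4 and the rises 2. Of all named genes 12.4% were called lower and 16.9% higher. CRR42, known from chlororespiratory reduction mutants, fell by 1.07, the iron-sulfur scaffold gene HCF101 by 0.97 and the splicing factor gene CFM3A by 0.83. CRR41 fell by 0.87, a call lost without wild-type replicate 2 (adjusted p = 0.068) and without double mutant replicate 1 (0.0957). The gene that rose was LPA66 (0.76, adjusted p = 0.00664), an RNA editing factor singled out after its values were seen.

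The tested transcripts of anthocyanin synthesis were higher in the double mutant than in wild type. All 5 tested genes of the flavonoid and anthocyanin list (28 listed) rose, at a median of 1.80, against 16.9% of all named genes called higher. DFR, for dihydroflavonol reductase, read 1953 and 2808 in wild type, 6797 and 7524 in sicy-192 and 7901 and 8962 in the double mutant. Both mutants lay above both wild-type arrays, and DFR rose by 1.84 ± 0.18 (adjusted p = 0.000237). The anthocyanin glycosyltransferase gene UF3GT went from 885 and 1118 to 4060.4 and 4267 (change 2.05 ± 0.15, adjusted p = 4.71e-05), with 3806 and 3952 in sicy-192. Differences between the double and the single mutant were 0.23 for DFR (adjusted p = 0.413) and 0.10 for UF3GT (0.678). The malonyltransferase gene AT5MAT and the flavonoid glucosyltransferase gene UGT78D2 rose by 1.80 and 1.64. AT4G14090, the fifth member and named after its values were seen, rose by 1.03 (adjusted p = 0.0137), a call lost without wild-type replicate 1 (change 0.60) and without double mutant replicate 2 (adjusted p = 0.0779).

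Seed reserve genes were represented by 2 tested members, and both rose. ICL, for isocitrate lyase of the glyoxylate cycle that turns storage oil into sugar, read 1992 and 1346 in wild type, 10628 and 10771 in sicy-192 and 8400.1 and 7191 in the double mutant. The change was 2.24 ± 0.19 (adjusted p = 0.000104), and the double mutant differed from sicy-192 by -0.46 (adjusted p = 0.12). SDP1, for a storage oil lipase, rose by 0.53 (adjusted p = 0.0315), a call lost without each of the 4 arrays compared (adjusted p up to 0.167), with quantile normalization and with centring on the median.

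Markers of mitochondrial dysfunction held some of the largest rises. Of the 5 tested members of this hand-written list (10 listed) 4 rose, at a median of 3.91, against 16.9% of all named genes called higher. All 4 were among the 15 largest rises of named genes. The list was chosen with earlier results of these data known, so this count is no independent result on such markers. AT2G04050 read 62.1 and 39.3 in wild type, 943 and 1867 in sicy-192 and 3331 and 3307 in the double mutant. It rose by 5.67 ± 0.29 (adjusted p = 7.31e-06), and the double mutant exceeded the single mutant by 1.31 (adjusted p = 0.0123). AT2G41730, measured by a probe set of the kind that can hybridise to similar sequences of other genes, rose by 4.17 and was likewise above sicy-192 (1.32, adjusted p = 0.00619). AT5G51440 went from 167 and 110.4 in wild type to 2248 and 2301 in the double mutant, with 2551 and 3363 in sicy-192 (change 3.91 ± 0.20, adjusted p = 7.38e-06). AT2G21640 rose by 3.74, from 347 and 190.2 to 3877 and 3432. For AT5G51440 and AT2G21640 the double mutant read lower than the single mutant without a call, with differences of -0.36 (adjusted p = 0.243) and -0.40 (0.261). NDB2, for an alternative NADH dehydrogenase and named as the list's member without a call, had a change of 0.40 (95% interval -0.01 to 0.80, adjusted p = 0.124).

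A list of 16 mitochondrion-encoded genes with a probe set was picked by symbol (nad, cox, ccb, matR and orfX), so other mitochondrial genes were left out. Of these 16 genes 7 were tested, and 3 rose, at a median of 0.76, against 16.9% of all named genes called higher. The cytochrome c assembly gene listed as ccb452 read 101 and 89.2 in wild type, 304 and 212 in sicy-192 and 506 and 307 in the double mutant, and rose by 1.89 ± 0.26 (adjusted p = 0.00111). Its probe set is of a kind that can match several transcripts. The cytochrome oxidase gene cox1 and the complex I gene nad4 rose by 1.11 and 0.76, calls lost without wild-type replicate 1 (adjusted p = 0.0638 and 0.0708) and without double mutant replicate 1 (0.124 and 0.0894). For ccb382, also named by the rule, the change was 0.77 (adjusted p = 0.136). The 25S rRNA level given above differed between the same arrays, and its part here was not tested.

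Heat shock and cold response genes were among those called higher in the double mutant. Of 5 heat shock genes with a probe set 4 were tested and called higher, but 2 of the 4, AT1G53540 and ATHSP22.0, passed the filter on dim probe sets only through the double mutant, where they were high, so the count carries no weight as a result on the list. When the filter was left out, AT1G53540 had an adjusted p of 0.0107 and 3 of the 4 genes were called. AT1G53540 read 40.2 and 36.2 in wild type, 43.9 and 12.9 in sicy-192 and 1346 and 320.4 in the double mutant. Both double mutant arrays were above all others but differed severalfold from each other, and the change was 3.64 ± 0.57 (adjusted p = 0.00199). AT2G29500 went from 251 and 214 to 2823 and 1303 (change 2.96 ± 0.41, adjusted p = 0.0011), with 379.9 and 155 in sicy-192. It was higher in the double than in the single mutant by 2.89 (adjusted p = 0.00162), and AT1G53540 by 4.02 (0.00162). AT5G37670 rose by 1.77. ATHSP22.0, for a small heat shock protein, rose by 2.23 (adjusted p = 0.0252), a call lost without wild-type replicate 2 (adjusted p = 0.0952) and without the filter (0.0701).

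Of 5 tested cold and drought genes 3 rose, of which STZ was tested only through the double mutant (adjusted p = 0.00673 without the filter), and 1 of 2 was called with the 50th percentile filter. COR15B, whose product is induced by cold and sits in the chloroplast stroma, read 77.9 and 99.5 in wild type, 46.4 and 24.9 in sicy-192 and 479 and 377 in the double mutant. The double mutant was above wild type by 2.08 ± 0.27 (adjusted p = 0.000738) and the single mutant below it (-1.04, adjusted p = 0.0218). COR15A, its close relative, went from 324 and 203 to 2358 and 880.4 (change 2.42 ± 0.53, adjusted p = 0.00924), a call lost without double mutant replicate 1 (change 1.71, adjusted p = 0.0638). The zinc finger regulator gene STZ read 7.06 and 58.4 in wild type and 347 and 455 in the double mutant, a rise of 3.32 whose size depends on the added 16 because of the dim wild-type arrays. The dehydrin gene LTI30 overlapped between the groups (0.53, adjusted p = 0.587), as did COR47 (0.10, adjusted p = 0.799), which was named after its values were seen.

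Enzymes that conjugate small molecules changed in both directions. Of 27 tested UDP-glycosyltransferase genes, which attach sugars to hormones, flavonoids and foreign compounds, 11 rose and 1 fell, at a median of 0.39. The shares over all named genes were 16.9% called higher and 12.4% called lower. Not all of these rises kept their call under every alternative, and 10 were called without the filter. UGT73C1 read 70.0 and 74.0 in wild type, 338 and 496 in sicy-192 and 1676 and 1765 in the double mutant. The 3 genotypes formed separate steps, and UGT73C1 rose by 4.30 ± 0.19 (adjusted p = 5.83e-06). UGT84A3 went from 208 and 237 in wild type to 1341 and 1441 in the double mutant and read 144 and 209 in sicy-192. It rose by 2.56 ± 0.19 (adjusted p = 5.25e-05), and UGT87A2 by 1.82. UF3GT and UGT78D2, given with anthocyanin synthesis, belong to the same family. UGT74B1, a glucosyltransferase of glucosinolate synthesis and the member that fell, named after its values were seen, had a change of -1.59 (adjusted p = 0.00171).

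Of 8 tested tau class glutathione transferase genes 3 rose and 2 fell, at a median of 0.09, and 1 of 5 was called higher with the 50th percentile filter. Among all named genes 16.9% were called higher and 12.4% lower. GSTU25 read 26.3 and 32.3 in wild type, 39.3 and 29.4 in sicy-192 and 275 and 287 in the double mutant, a change of 2.72 ± 0.25 (adjusted p = 0.000153). It passed the filter only through the double mutant, where it was high, and its adjusted p without the filter was 0.00156. GSTU20 went the other way, from 12466 and 9815 in wild type to 3307 and 3015 in the double mutant, with 9534 and 7022 in sicy-192, and fell by 1.80 ± 0.19 (adjusted p = 0.000264). The double mutant differed from the single mutant in both genes, by 2.57 (adjusted p = 0.000312) and -1.37 (0.0014). GSTU16 rose by 1.24. GSTU18 fell by 0.87 (adjusted p = 0.013), a call lost without wild-type replicate 1 (change -0.58, adjusted p = 0.0735) and without double mutant replicate 2 (0.0902). The direction of GSTU25, GSTU16, GSTU20 and GSTU18 held with quantile normalization and with centring on the median.

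**Figure D4:**
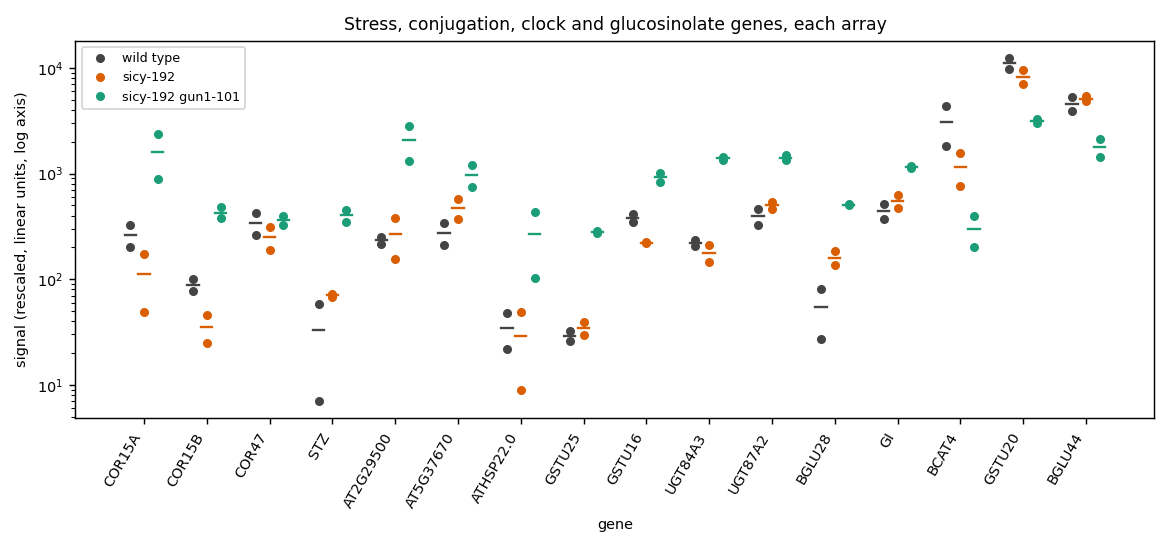
Signal of stress, conjugation, clock and glucosinolate genes in each array (log axis, rescaled linear signal). Points are single arrays, 2 per genotype, and short lines are their means. COR15B, GSTU25, UGT84A3 and GI are highest in the double mutant, whereas BCAT4 and GSTU20 are lowest there.

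BCAT4, for the aminotransferase that starts methionine-derived glucosinolate synthesis, was the single tested gene of its list. It read 4369 and 1828 in wild type, 1561 and 769 in sicy-192 and 394 and 204 in the double mutant. All double mutant arrays lay below the others, and BCAT4 fell by 3.24 ± 0.45 (adjusted p = 0.00109). The single mutant had a change of -1.35 (adjusted p = 0.0565). GI, a component of the circadian clock and the single tested gene of that list, went from 372 and 518 in wild type to 1135 and 1172 in the double mutant, with 477 and 627 in sicy-192, and rose by 1.36 ± 0.20 (adjusted p = 0.00133). The double mutant also exceeded sicy-192 in GI, by 1.05 (adjusted p = 0.00564). The stomatal lineage regulator FMA (FAMA), a guard cell marker, fell from 159 and 145 to 79.1 and 72.0, a change of -0.87 (adjusted p = 0.0154). FMA lost its call without wild-type replicate 1 and without either double mutant array (adjusted p = 0.0755, 0.054 and 0.0777).

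The tested genes of starch metabolism (5 of 28 listed) and sucrose metabolism (2 of 22 listed) were either lower or not called. Over all named genes the share called lower was 12.4%. Of 5 starch genes 2 fell: the disproportionating enzyme gene DPE1, from 868 and 1003 to 478 and 489 (change -0.93 ± 0.14, adjusted p = 0.00196), and the branching enzyme gene SBE2.2 by 0.66, a call lost without double mutant replicate 1 (adjusted p = 0.056). The ADP-glucose pyrophosphorylase genes APL4 and APL3 had changes of -0.61 (adjusted p = 0.112) and 0.07 (0.842). APL3 read 451 and 775 in wild type, 1281 and 1239 in sicy-192 and 718 and 541 in the double mutant, so its groups overlapped between wild type and double mutant. The sucrose phosphate synthase gene ATSPS4F read 928 and 822 in wild type, 107 and 66.6 in sicy-192 and 301 and 414 in the double mutant. It fell by 1.27 ± 0.23 (adjusted p = 0.00416) and was above sicy-192 by 1.87 (adjusted p = 0.000871). AT1G62660, the other tested member of that list, had a change of -0.41 (adjusted p = 0.374).

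Of 3 tested sugar-repressed genes limma called 0, and 0 had an unadjusted p under 0.05, while 1 was called higher without wild-type replicate 1. AT3G15450 read 441 and 657 in wild type, 149 and 86.5 in sicy-192 and 915 and 559 in the double mutant. Wild type and double mutant overlapped (0.40, 95% interval -0.28 to 1.08, adjusted p = 0.344), whereas the double mutant was above sicy-192 by 2.49 (adjusted p = 0.000821). PPDK and MCCA had changes of 0.33 (adjusted p = 0.267) and -0.02 (0.956). Among 6 tested SWEET sugar transporter genes 2 rose and 3 fell, but 0 were called lower without double mutant replicate 2 and 1 without wild-type replicate 1 or double mutant replicate 1. For all named genes the shares were 16.9% called higher and 12.4% called lower. SWEET13 rose by 1.20, from 104 and 98.0 to 253 and 253. SWEET16 and SWEET17 fell by 1.33 and 0.69 and SWEET2 rose by 0.64, but all 3 calls were lost without wild-type replicate 1 (adjusted p = 0.0692, 0.0714 and 0.0918) and without double mutant replicate 2 (0.0657, 0.0693 and 0.278). The call of SWEET17 was also lost without double mutant replicate 1 (adjusted p = 0.0526) and that of SWEET2 without wild-type replicate 2 (0.116) and with quantile normalization (0.1), while its change was 0.34 without double mutant replicate 2. SWEET11, named after its values were seen, fell by 0.61 and lost its call without either double mutant array (0.05 and 0.0521).

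Of 17 tested expansin and xyloglucan endotransglucosylase (XTH) genes, which loosen and remodel the wall, 5 fell and 1 rose, at a median of -0.52. Over all named genes 12.4% were called lower and 16.9% higher. Without wild-type replicate 1 the falls numbered 3. EXPA8 read 914 and 756 in wild type, 227 and 202 in sicy-192 and 253 and 236 in the double mutant. Both mutants lay well below wild type, and EXPA8 fell by 1.70 ± 0.17 (adjusted p = 0.000216). EXPA20 rose by 1.35, from 100.1 and 111 to 296 and 293, and was higher still in sicy-192, at 622 and 464. EXPB1 fell by 1.32 (adjusted p = 0.00731), a call lost without wild-type replicate 1 (adjusted p = 0.0527), as was that of XTH19 (0.0701), which was named after its values were seen and fell by 1.21. The call of XTH19 was also lost without wild-type replicate 2 (0.104) and without double mutant replicate 1 (0.191). EXLB1 had a change of -1.40 (adjusted p = 0.052).

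The largest rises of named genes beyond the lists were led by AT2G23910, which read 7.53 and 70.6 in wild type, 146 and 458 in sicy-192 and 1149 and 1731 in the double mutant. It rose by 4.98 ± 0.60 (adjusted p = 0.000565). AT1G17960 went from 67.2 and 12.3 to 910.2 and 831, a rise of 4.19 ± 0.39, and was higher in sicy-192, at 1769 and 1849 (double minus single mutant -1.04, adjusted p = 0.0908). Wild-type arrays of both genes reached down to near or below the added 16, so the sizes of these rises depend on it. AT1G72660, AT2G18190, AT3G45730, AT5G43450, AT1G43910 and AT5G11410 rose by 3.24 to 3.92. Of these, AT1G72660 read 35.1 and 14.0 in wild type, 132 and 60.5 in sicy-192 and 739.9 and 452 in the double mutant, above the single mutant by 2.48 (adjusted p = 0.00241). It passed the filter only through the double mutant and had an adjusted p of 0.00223 against wild type without the filter. AT3G45730 differed from sicy-192 by 0.28 (adjusted p = 0.453), at 389.5 and 374 in the single and 425 and 515 in the double mutant. The gene tables used here give no function for these loci.

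**Figure D5:**
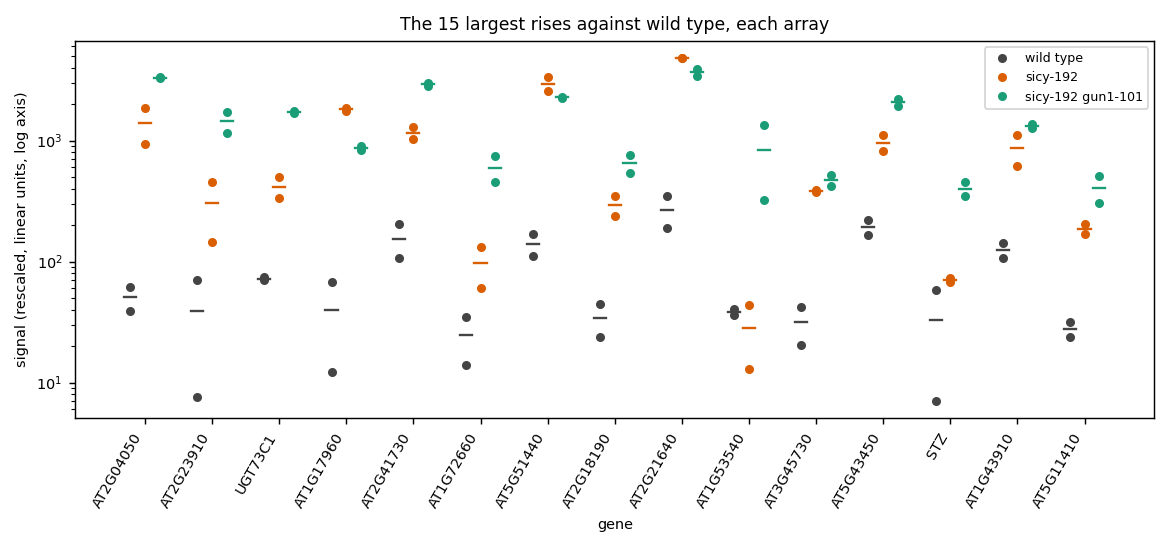
Signal of the 15 named genes with the largest rise against wild type, in each array (log axis, rescaled linear signal), ordered by the size of the rise. Points are single arrays, 2 per genotype, and short lines are their means. AT2G04050, at the left, rose by 5.67 on the log2 scale, and the 2 double mutant arrays of AT1G53540, at 1346 and 320.4, stand apart.

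Among nuclear genes, 932 of 7946 tested were called lower and 1354 higher. The 2 nuclear genes among the 15 largest falls were AT5G20790 and AT5G62280. AT5G20790 read 1009 and 1335 in wild type, 113 and 136 in sicy-192 and 51.7 and 34.2 in the double mutant. The single mutant arrays lay between the others, and AT5G20790 fell by 4.33 ± 0.23 (adjusted p = 7.38e-06). AT5G62280 fell by 3.32 ± 0.61 (adjusted p = 0.00446), from 352 and 667 to 7.78 and 89.4, with the lower double mutant array under the added 16. It was tested only through the wild type, with an adjusted p of 0.019 without the filter. The next largest nuclear falls after BCAT4, listed after their values were seen, began with AT3G16670, which read 979.7 and 962 in wild type, 364 and 442 in sicy-192 and 89.1 and 91.9 in the double mutant. It fell by 3.21 ± 0.16 (adjusted p = 7.31e-06) and its replicates lay close together. AT4G17470 fell by 2.73 (adjusted p = 0.000711, change -1.80 with an offset of 64), whereas the single mutant had a change of 0.22 (adjusted p = 0.678). AT1G47400 and AT5G01015 fell by 2.25 and 2.24, with differences from the single mutant of -0.21 (adjusted p = 0.439) and -0.02 (0.961).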

How the data were processed

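Cotyledon RNA was labelled with biotin by in vitro transcription and hybridised to 1-colour Affymetrix arrays, per the labels' protocols. What the authors deposited is 1 linear signal intensity for each probe set; the submitters' processing notes name GCOS, without a version. After trimming 2% of the values at both ends, the mean of every array was 500, so the authors had scaled them before deposit. The number of arrays limits the precision.

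Arrays were rescaled to that trimmed mean, 16 was added and log2 taken. Of 22746 probe sets that are not controls, the 14785 above the 35th percentile of mean log2 value entered a two-sided test in limma 3.58.1 under R 4.3.3 (lmFit, eBayes with a variance trend), all 6 arrays in 1 fit and Benjamini-Hochberg adjustment over the probe sets tested. On simulated data the share of false calls lay somewhat above the threshold. A probe set bright in 1 genotype alone can pass the filter through that genotype, as did 72 of the higher calls through the double mutant and 34 of the lower calls through the wild type, judged by the mean of the other 4 arrays. The gene table gives 13513 probe sets a single gene, 503 several and 8730 none, and probe sets with several genes or none were not named, among them 2087 of those called. Of the 13513, 13436 matched a RefSeq locus through the Entrez identifier. Coordinates are left out, because the build is not given in the sources used here.

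Comparisons of both mutants with wild type share the wild-type arrays, and comparisons with sicy-192 share the double mutant arrays, so their values are set side by side only. The members and gene lists were chosen with earlier results of these data known, and some families were added once the gene table's names were known. Many genes of the hand-written lists had no probe set with a single gene, so the counts cover only the tested members. The rule for named genes takes the 15 largest rises and the 15 largest falls among called genes without overlap between the groups, and from each list up to 4 tested members with the largest absolute change. Alternatives were quantile normalization, centring on the median, the deposited values unscaled, offsets of 1 and 64, no filter or one at the 50th percentile, a threshold of 0.10, no variance trend, a fit of only the 4 arrays compared, a block for the replicate number, and dropping each array once.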

Additional observations from a re-analysis of the deposited data

How the results depend on the processing

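Of the 140 genes named by the rule 119 were called. Of these, 95 kept call and sign under all alternatives in which they were tested. Another 24 lost the call under at least 1, and 0 changed sign. A gene below the filter of an alternative was not tested there and was not counted as lost. With the 50th percentile filter, for example, 2 of the 4 heat shock genes were tested. The number of calls, 4450, was 3530 without the filter, 3944 with the 50th percentile filter, 4032 with quantile normalization, 4166 with centring on the median and 4391 and 4484 with offsets of 1 and 64, and lay between 2307 and 4322 when 1 array was left out. The 797 probe sets 2-fold apart in every pairing became 591 with an offset of 64 and 937 without the filter, and 802 to 1306 when 1 array was left out, since fewer pairings must then pass. With the replicate number as a block the count of calls was 6362. Of the 21 named genes without a call 12 were then called, among them RCA (adjusted p = 0.0039), while 0 named genes lost a call. Outside the rule for named genes, PSAE-1 (0.00178), psbK (5.56e-05) and psbI (0.0335) were called too. Deviations of same-numbered arrays from their genotype means correlated at 0.33 between wild type and double mutant, 0.44 between wild type and sicy-192 and 0.37 between sicy-192 and double mutant. The bioB hybridisation control read 313 to 391 in arrays numbered 1 and 51.6 to 68.8 in arrays numbered 2. The third principal component, with 10.83% of the variance, also separated the numbers in every genotype. The labels give no shared batch for a number and 2 arrays per genotype give only 2 pairs, so the block was kept as an alternative and the pairing is a hint from the data.

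Values without a call reversed under some settings, and the cause was not tested. With quantile normalization the change of RCA was 0.087, that of HPR 0.208 and that of APL3 -0.053, and with centring on the median that of APL3 was -0.018. Leaving out 1 array gave -0.487 to 0.143 for HPR, -0.308 to 0.453 for APL3, -0.272 to 0.232 for MCCA, -0.059 to 1.111 for LTI30 and -0.693 to 0.035 for PDF1.2. The median of the tau glutathione transferases was -0.232 with the 50th percentile filter, -0.002 with centring on the median and -0.080 to 0.259 with 1 array left out. That of the beta-glucosidases was 0.144 with the 50th percentile filter and -0.155 to 0.001 with 1 array left out, and that of the SWEET genes 0.090 with the 50th percentile filter. Probe sets near the added 16 carry little information on the size of a change, and 7961 dimmer ones were not tested.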

Other observations

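Families beyond those above held calls in both directions. The shares over all named genes were 16.9% called higher and 12.4% called lower. Some of the small counts below lie near these shares, and none is read as a result on a family. Of 10 tested beta-glucosidase genes, whose enzymes release glucose from stored conjugates and cell walls, 2 rose and 3 fell, at a median of -0.08, with 1 rise left without wild-type replicate 1 or double mutant replicate 1. BGLU28 read 81.7 and 27.3 in wild type, 135 and 186 in sicy-192 and 504 and 516 in the double mutant, and rose by 3.01 ± 0.34 (adjusted p = 0.000405). BGLU44 went the other way, from 3902 and 5309 to 1449 and 2119, with 4859 and 5412 in sicy-192 (change -1.37 ± 0.21, adjusted p = 0.00182). BGLU33 and BGLU16 fell by 1.52 and 1.20. Of 15 tested trichome birefringence-like genes, whose products acetylate wall polysaccharides, 1 rose and 2 fell, at a median of -0.28, with 1 fall left without either double mutant array or without the filter. TBL37 rose from 420.1 and 289.8 to 1044 and 1119.8 (change 1.59 ± 0.18) and TBL45 fell by 0.86, while TBL41 (-0.80, adjusted p = 0.0528) and TBL36 (-0.55, adjusted p = 0.292) had no call. Of 13 tested serine carboxypeptidase-like genes 1 rose and 5 fell, at a median of -0.34, with 1 fall left without wild-type replicate 1 and 2 without double mutant replicate 1. SCPL27 fell from 171 and 189 to 55.7 and 80.5 and SCPL49 rose by 0.82. The falls of scpl29 (-0.68) and scpl25 (-0.67) were lost without wild-type replicate 1 (adjusted p = 0.0686 and 0.225) and without double mutant replicate 2 (0.116 and 0.176), that of scpl25 also without double mutant replicate 1 (0.088). SCPL34 and scpl26, named after their values were seen, fell by 0.64 and 0.51 and lost their calls without wild-type replicate 1 (0.0713 and 0.122) and without double mutant replicate 1 (0.188 and 0.061), SCPL34 also without wild-type replicate 2 (0.0813) and scpl26 without double mutant replicate 2 (0.144).

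Among 9 tested bZIP transcription factor genes 2 rose and 1 fell, at a median of 0.40, with 1 rise left without wild-type replicate 1, without either double mutant array, with quantile normalization or with centring on the median. BZIP60, a factor of the unfolded protein response of the endoplasmic reticulum, read 463 and 577 in wild type, 1007 and 1339.7 in sicy-192 and 1054 and 1429.8 in the double mutant, and rose by 1.22 ± 0.20 (adjusted p = 0.00271). BZIP61 fell by 0.93, a call lost without double mutant replicate 1 (adjusted p = 0.0609), and bZIP58 and BZIP28 had changes of 0.65 (adjusted p = 0.138) and 0.57 (0.0649). Of 9 tested cytochrome P450 genes 3 rose and 1 fell, at a median of -0.30, but 0 were called higher without the second array of the double mutant and 1 without the first. CYP71B35 fell from 201 and 171 to 45.9 and 72.9 (change -1.44 ± 0.26). CYP71B5 rose by 0.94, a call lost without double mutant replicate 2 (adjusted p = 0.0702), and CYP71B37 by 0.85, lost without wild-type replicate 1, double mutant replicate 1 or double mutant replicate 2 (adjusted p up to 0.11) and without the filter. CYP71B6, named after its values were seen, rose by 0.62 and lost its call without wild-type replicate 2 (0.0854) and without either double mutant array (0.103 and 0.054). CYP84A4 had a change of -0.75 (adjusted p = 0.0592). Lists with 1 tested gene and no call were carotenoid synthesis, with LYC at -0.10 (adjusted p = 0.642), the nuclear-encoded plastid transcription machinery, with AT5G15700 at 0.58 (0.0561), and defence, with PDF1.2 at -0.33 (0.469).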
